A study of Drosophila melanogaster with 8 samples.

Results

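Chaperones are proteins that bind unfolded or damaged polypeptides and help them to fold or hold them soluble. In flies the heat shock factor Hsf switches on inducible chaperone genes when unfolded protein builds up in the cytosol, whereas unfolded protein in the endoplasmic reticulum (ER) is sensed by Ire1, PEK and Atf6, which act through the factors Xbp1 and crc. Neurons rely on constitutive chaperones in the absence of heat, and small heat shock genes of the fly are also switched on by the moulting hormone ecdysone late in larval life. The chaperone and unfolded protein response genes described here were chosen by gene symbol: heat shock, chaperonin and ER stress genes, 37 in all. Of these, 36 were among the 14175 genes of the files, and CCT8 was not analysed here. The 6 near-identical Hsp70 copies were added together and treated as 1 gene, which left 31 genes to describe.

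RNA was measured in larval ventral nerve cords of wit mutants (witA12,st1/witB11,st1) and of controls (witA12,st1/+), with 4 libraries per genotype. Controls thus also had 1 mutant allele of wit, the gene of a BMP type II receptor, and 1 copy of the eye colour allele st1. All larvae were wandering females in a w1118 background, raised at 25 °C with 80 per vial, and each library pooled 25 nerve cords freed of brain lobes. The comparison asks which transcripts of the nerve cord depend on BMP signalling through wit.

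Libraries held 20923717 to 32740480 estimated counts. Values are given as CPM, the count scaled to a common library size, and 3 counts correspond to between 0.0916 and 0.143 CPM. The wit transcript was at 82.1, 85.2, 89.1 and 91.0 CPM in mutants and at 89.8, 86.6, 91.0 and 94.9 CPM in controls (log2 fold change -0.06, edgeR adjusted p = 0.371), and the level does not check the genotype, since the lesions of both alleles are not described in the labels. The st transcript averaged 0.187 CPM in mutants and 0.410 CPM in controls (adjusted p = 0.0304, lost in 10 of 14 alternatives). The 5 neuronal markers elav, nSyb, brp, Syt1 and VGlut were present, with a summed level of 3782 to 4146 CPM in mutants and 4570 to 4761 CPM in controls, and 4 of the 5 were called lower. Summed glial markers were at 675 to 1038 CPM in mutants and 1144 to 1182 CPM in controls (2 of 5 called lower). Those called were Gs2, with means of 285 CPM in mutants and 568 CPM in controls, and Eaat1 (164 and 190 CPM). The glial markers repo, nrv2 and moody overlapped between genotypes and were not called. Fat body markers summed to 579.5 to 617 CPM in mutants and 671 to 823 CPM in controls (1 of 5 called lower). Nearly all of this sum was apolpp, the marker called (583 CPM in mutants, 741 CPM in controls). Lsp1alpha, Lsp2, Fbp1 and Fbp2 overlapped, were not called and had higher means in mutants. Hemocyte markers were at 4.22 to 8.72 CPM in mutants and 8.83 to 15.7 CPM in controls (1 of 3 tested called lower), and NimC1 had at most 3 counts in a library. The hemocyte marker called was PPO2 (4.66 CPM in mutants, 9.92 CPM in controls), while Hml and eater overlapped between genotypes. Sums overlapped between genotypes for 4 muscle markers (1.67 to 8.39 CPM in mutants, 1.43 to 6.14 CPM in controls) and 4 imaginal disc markers (253 to 278 CPM in mutants, 256 to 264 CPM in controls). Most of the disc sum was Ubx, with means of 149 CPM in mutants and 146 CPM in controls. The 1 disc marker called higher was vg (20.9 CPM in mutants, 18.5 CPM in controls). The male dosage gene msl-2 was at 55.4 to 61.2 CPM in mutants and 49.9 to 53.6 CPM in controls and was called higher (edgeR adjusted p = 0.0346). Of 3 male markers listed, only msl-2 was matched in the files, and its RNA level alone does not check the sex of the larvae. None of these markers was at 0 in every library, and the part of these shifts in the results below was not tested. In pooled tissue, fewer cells of a type and less RNA per cell cannot be told apart.

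Of the 31 genes, 30 had enough counts to be tested, and the one left out was Hsc70-1. The summed Hsp70 copies, the Hsp40 gene DnaJ-1 and the ER stress factor gene crc rose in wit mutants. The Hsp70 relative Hsp68, the Hsp90 gene Hsp83 and the mitochondrial Hsp70 gene Hsc70-5 fell, and the other 24 did not pass the test. Of all 9171 genes tested, 6.13% were called higher and 8.67% lower, 14.8% together, and the genotypes did not overlap for 20.5%. With 3 higher and 3 lower of 30, and 5 that did not overlap, the counts for the chaperone genes lie close to those shares. The median log2 fold change was 0.0018 over the 30 genes and 0.0054 over all genes tested. All 6 changes were small, at most 1.35-fold.

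**Figure D1:**
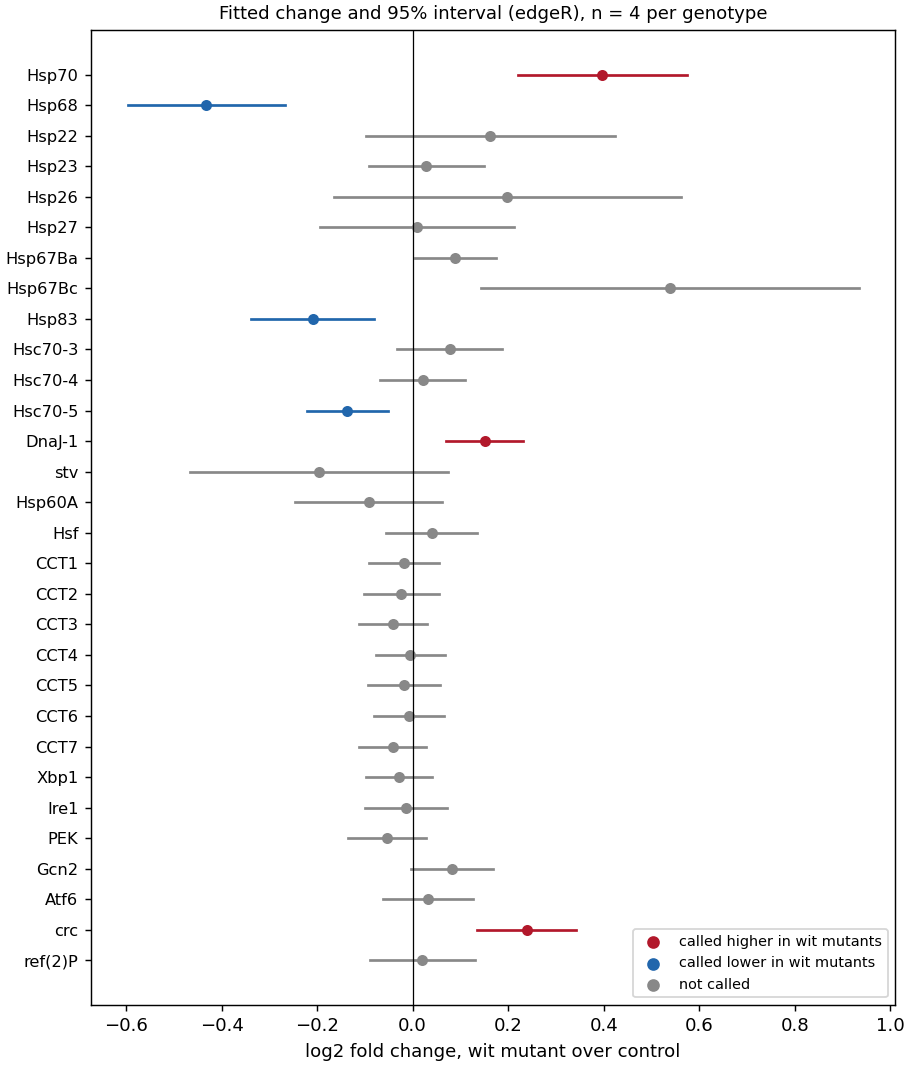
Fitted log2 fold change (horizontal axis, wit mutant over control) of the 30 tested genes, with the 6 Hsp70 copies as 1 gene; points are edgeR estimates, lines are 95% intervals, and n = 4 libraries per genotype. Hsp70, DnaJ-1 and crc lie to the right of 0 and Hsp68, Hsp83 and Hsc70-5 to the left, while the 7 CCT subunits are clustered within 0.05 of 0.

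Hsp70 is the chief heat-inducible chaperone of the fly cytosol. Its 6 copies together were at 18.2, 16.2, 17.2 and 16.6 CPM in mutants and at 15.2, 12.3, 11.8 and 12.4 CPM in controls. Every mutant library lay above every control library, and control 1 was the highest control. Means were 17.1 ± 0.892 CPM in mutants and 12.9 ± 1.51 CPM in controls (SD, n = 4 each), a 1.32-fold rise (log2 fold change 0.40, SE 0.08, edgeR adjusted p = 0.00685). The call held in all 13 alternatives that kept this sum.

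The copies lie at 2 places on chromosome arm 3R (BDGP6): Hsp70Aa and Hsp70Ab between 11954163 and 11960909, and Hsp70Ba, Hsp70Bbb, Hsp70Bb and Hsp70Bc between 12465453 and 12511461. Summed by place, a split chosen after the values were seen, the 4 Hsp70B copies were at 14.1, 12.9, 13.4 and 14.1 CPM in mutants and at 9.70, 8.61, 8.85 and 8.49 CPM in controls. The genotypes were far apart for this sum, which rose 1.53-fold (log2 fold change 0.61, SE 0.07, edgeR adjusted p = 0.000101). The 2 Hsp70A copies were at 4.17, 3.27, 3.86 and 2.45 CPM in mutants and at 5.47, 3.72, 2.96 and 3.95 CPM in controls. These values overlapped, with a log2 fold change of -0.23 (SE 0.21, adjusted p = 0.483) and a 95% interval from -0.69 to 0.22. The ratio of Hsp70B to Hsp70A was 3.38, 3.95, 3.46 and 5.76 in mutants and 1.77, 2.31, 2.99 and 2.15 in controls. The ratio was higher in all 4 mutants than in any control, and it is given as a description, since it was formed after the values of both sums were seen. Estimated counts of both sums were not whole, such as 87.98 for Hsp70A and 297.02 for Hsp70B in mutant 1, where all copies together had 385. Some reads were thus divided between the 2 places by estimate. Both sums and their ratio depend on that division, and the sum of all copies does not.

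Counts of single copies are uncertain, since the copies are near-identical and their deposited counts were partly not whole. Hsp70Aa and Hsp70Ab showed this most plainly. Hsp70Ab was at 0 CPM in mutants 1 to 3, at 2.38 CPM in mutant 4 and at 4.23, 3.61, 1.59 and 0 CPM in controls. Hsp70Aa was at 4.17, 3.27, 3.86 and 0.068 CPM in mutants and at 1.24, 0.113, 1.41 and 3.95 CPM in controls. Where one of the pair was near 0 the other held nearly all of their counts, so neither value stands for its gene. Among the Hsp70B copies as deposited, Hsp70Ba was at 1.80, 2.21, 2.41 and 2.41 CPM in mutants and at 0.639, 0.940, 0.722 and 0.783 CPM in controls (log2 fold change 1.52, SE 0.18, edgeR adjusted p = 0.000190). Hsp70Bb was at 7.06, 5.96, 7.03 and 8.29 CPM in mutants and at 5.97, 4.55, 4.01 and 4.07 CPM in controls, so its lowest mutant lay just below its highest control (0.61, SE 0.14, adjusted p = 0.0150, and 0.0527 without control replicate 3). Hsp70Bbb (0.14, adjusted p = 0.901) and Hsp70Bc (0.38, adjusted p = 0.233) did not pass the test.

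**Figure D2:**
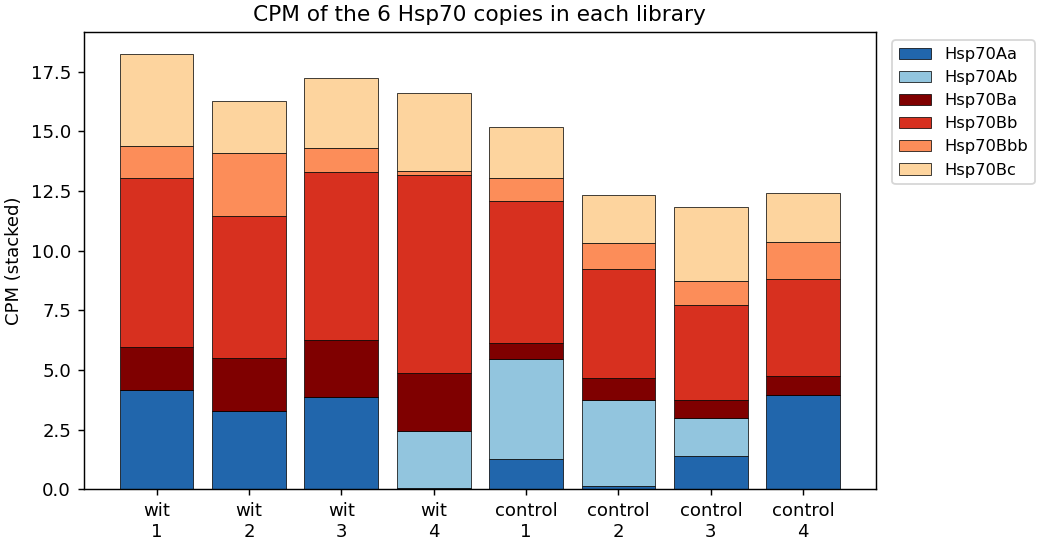
Estimated CPM of each Hsp70 copy (stacked bars, vertical axis from 0) in the 4 wit mutant and 4 control libraries; blue shades are the 2 Hsp70A copies and red to orange shades the 4 Hsp70B copies. The red and orange part adds up to 12.9 to 14.1 CPM in mutants and 8.49 to 9.70 CPM in controls, while the blue part passes between Hsp70Aa and Hsp70Ab from library to library.

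Hsp68, a single-copy relative of Hsp70 that is induced by heat in the same way (3R, 24055080 to 24057310), moved in the other direction. It was at 16.2, 15.4, 14.8 and 13.6 CPM in mutants and at 22.5, 20.2, 17.9 and 20.1 CPM in controls. All mutants lay below all controls, with control 3 nearest to them. Means were 14.99 ± 1.10 CPM in mutants and 20.2 ± 1.87 CPM in controls, a 1.35-fold fall (log2 fold change -0.43, SE 0.08, edgeR adjusted p = 0.00280), and the call held in all 15 alternatives. The gene CG6000 overlaps Hsp68 on the opposite strand, and use of strand in counting was not given in the sources used here. CG6000 ends at 24055092, so this overlap is shorter than a 42 bp read. CG6000 was at 18.0 CPM in mutants and 18.6 CPM in controls.

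**Figure D3:**
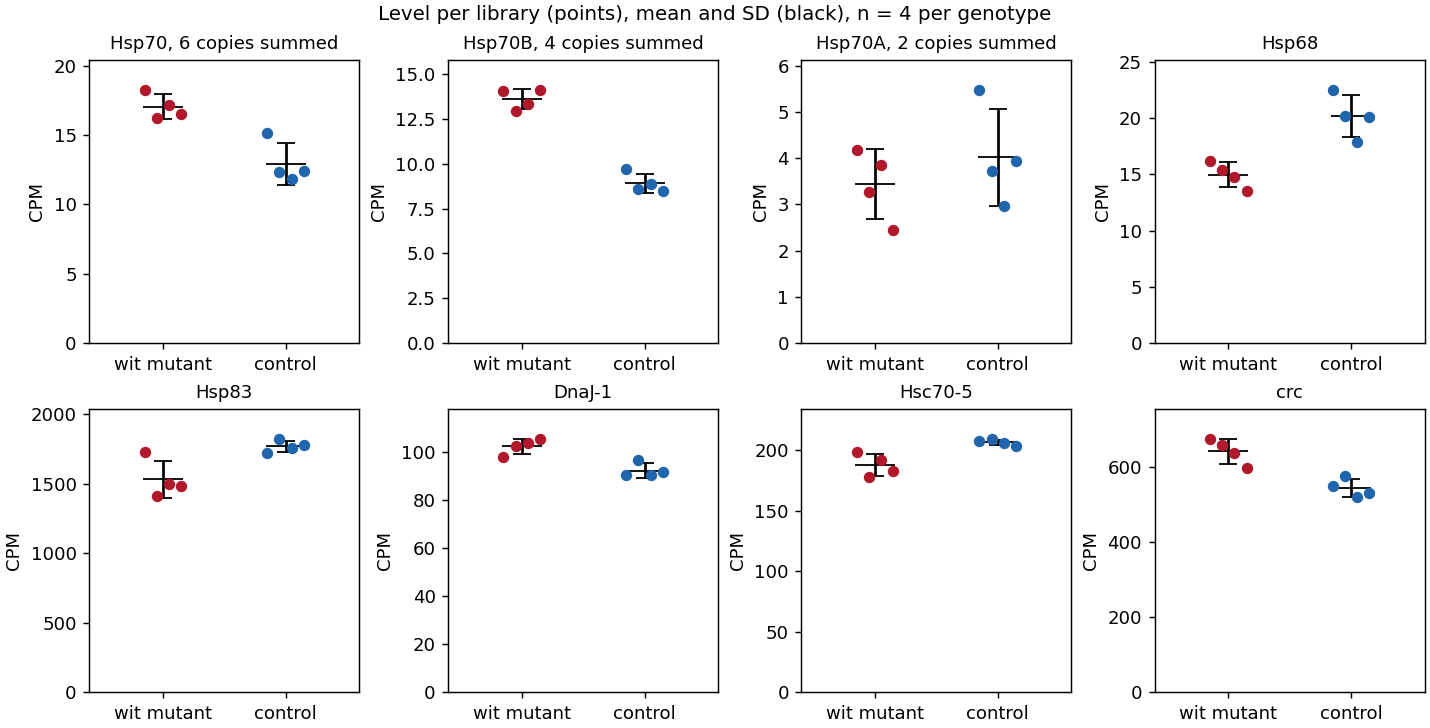
CPM per library (points; vertical axes start at 0) with mean and SD (black) for the summed Hsp70 copies, the Hsp70B and Hsp70A sums, and Hsp68, Hsp83, DnaJ-1, Hsc70-5 and crc, with wit mutants on the left of each panel. Mutants and controls separate fully for the Hsp70 sum, Hsp70B, Hsp68, DnaJ-1, Hsc70-5 and crc, and 1 mutant reaches the controls for Hsp83.

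The 6 small heat shock genes lie within 14.2 kb on chromosome arm 3L (9371511 to 9385694). Small heat shock proteins hold unfolded proteins without using ATP; Hsp22 is a mitochondrial member and Hsp67Bc acts with the co-chaperone stv in protein quality control. None of the 6 passed the test. Hsp67Bc was at 137, 228, 183 and 219 CPM in mutants and at 154, 121, 123 and 131 CPM in controls. Mutants 2, 3 and 4 lay above every control and mutant 1 lay among them (log2 fold change 0.54, SE 0.17, edgeR adjusted p = 0.0779). Hsp67Ba was at 647, 715, 687 and 696 CPM in mutants and at 650.3, 636, 646 and 648 CPM in controls, again with mutant 1 among the controls (0.09, SE 0.04, adjusted p = 0.142). Without mutant replicate 1, Hsp67Bc and Hsp67Ba passed (log2 fold change 0.67 and adjusted p = 0.00804 for Hsp67Bc, 0.12 and 0.0350 for Hsp67Ba), and Hsp67Bc also passed in the DESeq2 Wald test (adjusted p = 0.0181); without mutant replicate 1, 11.4% of all genes were called higher and 12.1% lower, 23.6% together, and 5 chaperone genes were higher and 4 lower.

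The other small heat shock genes overlapped widely between genotypes. Hsp26 was at 178, 261, 227 and 242 CPM in mutants and at 250.2, 179, 186 and 178 CPM in controls (log2 fold change 0.20, 95% interval -0.17 to 0.56). Hsp22 was at 8.43, 10.8, 8.89 and 8.80 CPM in mutants and at 10.2, 7.93, 7.84 and 7.05 CPM in controls (0.16, interval -0.10 to 0.42). Control 1 stood out as the highest control for both. Hsp27 ranged from 1484 to 2025 CPM in mutants and from 1624 to 1963 CPM in controls (0.01, interval -0.19 to 0.21), and Hsp23 from 2398 to 2604 CPM and from 2266 to 2641 CPM (0.03, interval -0.09 to 0.15). Hsp22 and Hsp27 had counts that were not whole (off by over 0.05) in 5 and 7 libraries, so some of their reads may have been divided between overlapping genes.

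Libraries of 1 genotype differed in the small heat shock genes together. Mutant 1 was the lowest mutant and mutant 2 the highest for all 6 genes, and control 1 was the highest control for all 6. The median within-genotype SD of log2 CPM was 0.17 for the 6 genes and 0.08 for all genes tested. Over all genes, mutants 1 and 2 also lay at opposite ends of the second principal component (14.5% of the variance). The 6 genes share a locus and these 8 libraries, so they are not independent readings.

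**Figure D4:**
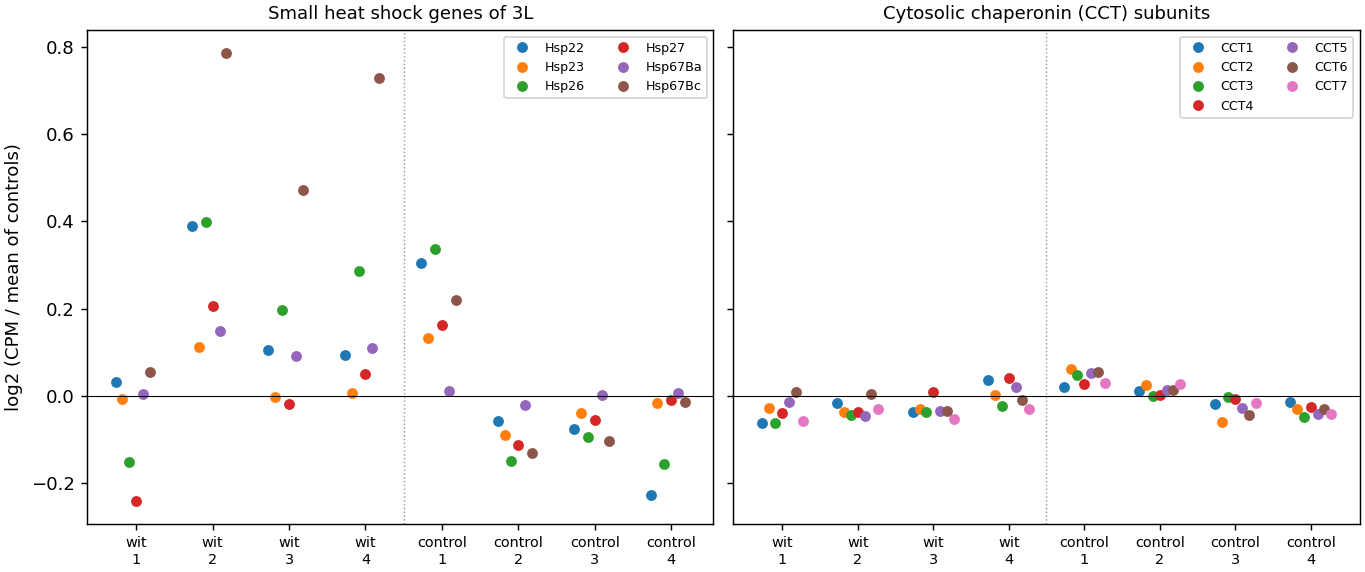
Level of each gene in each library relative to the mean of the 4 controls (log2, vertical axis) for the 6 small heat shock genes of 3L (left panel) and the 7 CCT subunits (right panel), with wit mutants left of the dotted line. Each small heat shock gene is lowest in mutant 1 and highest in mutant 2 among mutants, and highest in control 1 among controls, while the CCT points stay close to 0 in all 8 libraries.

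Hsp83, the cytosolic Hsp90 that matures kinases and hormone receptors (3L, 3192969 to 3197059), was at 1726, 1411, 1498 and 1485 CPM in mutants and at 1719, 1818, 1754 and 1780 CPM in controls. Mutants 2, 3 and 4 lay below all controls and mutant 1 lay between control 1 and the other controls. It fell 1.16-fold (log2 fold change -0.21, SE 0.06, edgeR adjusted p = 0.0350). The call was lost without any 1 of mutant replicates 2 to 4 or control replicates 2 to 4 (adjusted p 0.0774 to 0.112), and without mutant replicate 1 the log2 fold change was -0.27 (adjusted p = 0.000809). CG14966, which overlaps it on the opposite strand and was looked up for that reason, was called higher, at 13.5 CPM in mutants and 10.04 CPM in controls (edgeR adjusted p = 0.0128). CG14966 starts at 3197045, so this overlap too is shorter than a 42 bp read.

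The constitutive Hsc70 genes changed little. Hsc70-4, the main cytosolic Hsp70 of unstressed cells and of synaptic vesicle uncoating, was at 3175, 3080, 3202 and 3121 CPM in mutants and at 3183, 3096, 3074 and 3044 CPM in controls. Its 95% interval ran from -0.07 to 0.11 on the log2 scale. Hsc70-3 (BiP), the ER member, was at 1244, 1441, 1345 and 1353 CPM in mutants and at 1339.6, 1256, 1236 and 1271 CPM in controls. Its mutants 2, 3 and 4 lay above all controls and mutant 1 lay among them (log2 fold change 0.08, interval -0.03 to 0.19, edgeR adjusted p = 0.330). Hsc70-1 had at most 7 counts in any library, with 0, 2, 0 and 2 counts in mutants and 7, 5, 2 and 2 in controls, too few to test.

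Among the mitochondrial chaperones, Hsc70-5, the Hsp70 of the matrix, was at 199, 178, 192 and 183 CPM in mutant libraries and at 208, 209, 206 and 204 CPM in controls. The genotypes did not overlap, and it fell 1.10-fold (log2 fold change -0.14, SE 0.04, edgeR adjusted p = 0.0365). Leaving out any single library but mutant replicate 1 ended the call (adjusted p 0.0633 to 0.113), as did testing with no low-count filter (0.0507). Hsp60A, the chaperonin of the matrix, was at 250.3, 194, 228 and 202 CPM in mutants and at 233, 231, 237 and 230.3 CPM in controls. Mutant 1 was the highest and mutants 2, 3 and 4 the lowest of the 8 libraries (log2 fold change -0.09, adjusted p = 0.412). Without mutant replicate 1 it was -0.16 (adjusted p = 0.0267).

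Of the co-chaperones, DnaJ-1, an Hsp40 that delivers substrates to Hsp70, was at 98.0, 102, 104 and 105 CPM in mutants and at 90.2, 96.8, 90.2 and 91.6 CPM in controls. All mutants lay above all controls, and it rose 1.11-fold (log2 fold change 0.15, SE 0.04, edgeR adjusted p = 0.0188). The call was lost without mutant replicate 3 or control replicate 3 or 4 (adjusted p 0.0515 to 0.0684). The BAG-domain gene stv, which releases substrates from Hsp70, was at 21.7, 16.4, 20.9 and 14.8 CPM in mutants and at 19.9, 21.2, 19.9 and 23.03 CPM in controls. Mutants 2 and 4 lay below all controls and mutants 1 and 3 among them (-0.20, interval -0.47 to 0.08). Hsf, which encodes the factor that drives the inducible genes and is itself controlled mainly at the protein level, was at 72.6, 71.6, 72.4 and 79.9 CPM in mutants and at 68.8, 74.5, 73.5 and 71.7 CPM in controls (0.04, interval -0.06 to 0.14).

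The CCT genes encode subunits of the ring-shaped cytosolic chaperonin, which folds actin and tubulin and has each subunit at a fixed place in the ring. None of the 7 measured subunits passed the test. Their log2 fold changes lay between -0.042 and -0.0048, with standard errors of 0.03 to 0.04, and the 95% intervals of all 7 lay between -0.11 and 0.07. CCT1 ranged from 286 to 306 CPM in mutants and from 294 to 302 CPM in controls, and CCT5 from 326 to 341 CPM in mutants and from 327 to 349 CPM in controls. For each subunit the genotypes overlapped. Within genotypes the subunits were also close, with a median SD of log2 CPM of 0.03, against 0.08 for all genes tested, and control 1 was the highest control for all 7. Per length, means ran from 117 (CCT6) to 170 (CCT5) CPM per kb in mutants and from 118 to 173 in controls.

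Genes of the ER stress sensors overlapped between genotypes as well. Ire1, the kinase and nuclease that splices Xbp1 RNA, was at 56.2, 58.3, 57.9 and 57.2 CPM in mutants and at 54.8, 61.2, 58.04 and 57.9 CPM in controls (log2 fold change -0.01, 95% interval -0.10 to 0.07). Xbp1 was at 331, 326, 331 and 324 CPM in mutants and at 343, 336, 329 and 329 CPM in controls (-0.03, interval -0.10 to 0.04). PEK, the kinase that phosphorylates the initiation factor eIF2alpha from the ER, ranged from 68.7 to 75.1 CPM in mutants and from 72.7 to 76.2 CPM in controls (-0.05, interval -0.14 to 0.03). Atf6, a membrane-bound factor released by cleavage, ranged from 103 to 119 CPM in mutants and from 108 to 111 CPM in controls (0.03, interval -0.06 to 0.13). Gcn2, the eIF2alpha kinase that senses amino acid shortage, was at 79.6, 78.5, 77.0 and 83.4 CPM in mutants and at 72.8, 73.0, 77.0 and 78.0 CPM in controls, with 3 mutants above all controls (0.08, interval -0.0024 to 0.17, edgeR adjusted p = 0.179).

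The gene crc encodes the fly ATF4, the factor made when eIF2alpha is phosphorylated. It was at 673, 657, 638 and 596 CPM in mutants and at 549, 575, 519.8 and 529.5 CPM in controls. All mutants lay above all controls, with means of 641 ± 33.1 CPM in mutants and 543 ± 24.2 CPM in controls (SD, n = 4 each). It rose 1.18-fold (log2 fold change 0.24, SE 0.05, edgeR adjusted p = 0.00598), and the call held in all 15 alternatives. Counts per gene read neither the splicing of Xbp1 nor the translation of crc, the steps by which both factors are known to be switched on. The selective autophagy adaptor gene ref(2)P, the fly p62, was at 159, 181, 181 and 183 CPM in mutants and at 185, 168, 170.3 and 170.3 CPM in controls, overlapping between genotypes (0.02, interval -0.09 to 0.13).

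Set against each other per length of the longest annotated transcript, the mean levels of the single-copy genes spanned a wide range. Hsp23 was the highest at 2780 CPM per kb in mutants and 2725 CPM per kb in controls. Hsc70-4 followed, at 1328 CPM per kb in mutants and 1309 in controls, and then Hsp27, at 1081 in mutants and 1075 in controls. Hsp83, Hsc70-3 and Hsp67Ba came next, between 396 and 517 CPM per kb in mutants and between 372 and 597 in controls. Of those tested, the lowest were Hsp68 (6.72 CPM per kb in mutants, 9.04 in controls), stv (5.49 in mutants, 6.26 in controls) and Hsp22 (4.86 in mutants, 4.34 in controls). The length used for Hsp22, 1.9 kb, is also that of CG4456, a gene that spans it on the same strand. The rank of Hsp22 as the lowest depends on that length. The nerve cords of both genotypes thus held much Hsp23, Hsp27 and Hsp67Ba RNA and little Hsp22 and Hsp68 RNA.

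**Figure D5:**
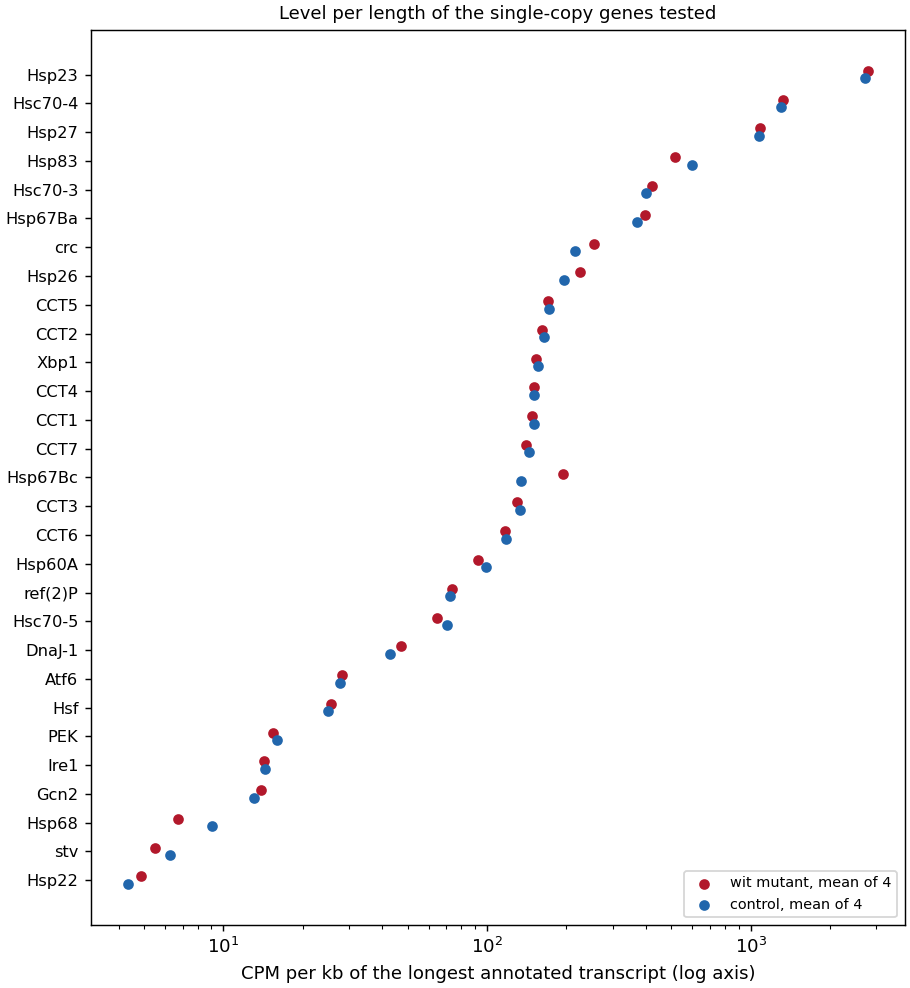
Mean CPM per kb of the longest annotated transcript (horizontal log axis) of each tested gene other than Hsp70, ordered by the control mean, for wit mutants (red) and controls (blue), n = 4 libraries each. Levels span from 4.34 CPM per kb (Hsp22) to 2725 CPM per kb (Hsp23) in controls, and the genotypes lie close together at each gene.

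Most of these genes lie on the chromosome that differs between the genotypes, since mutants carry the witB11 chromosome 3 where controls carry the wild-type one. Of the 36 genes in the files, 24 were on chromosome 3. Of the 18 tested genes on it (Hsp70 as 1), 4 were called, Hsp70, Hsp68, Hsp83 and DnaJ-1, and of the 12 on other chromosomes 2 were called, Hsc70-5 and crc. Among all genes tested, 15.3% of those on chromosome 3 and 14.4% of those elsewhere were called. For a gene on chromosome 3, loss of wit and other differences between these chromosomes cannot be told apart.

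A wider set of 93 chaperone, ER and stress genes in 4 lists, put together by role, held 86 genes in the files and 79 tested. Of these 79, 6 were called higher and 2 lower, beside 6.13% higher and 8.67% lower (14.8% together) over all genes tested. Their median log2 fold change was 0.02, against 0.0054 over all genes tested, and none of the 4 lists was tested as a set. Of 21 tested genes of other heat shock proteins and co-chaperones, 2 fell and 1 rose, with a median of -0.0075. HIP, which encodes a co-chaperone that binds Hsc70, ranged from 106 to 124 CPM in mutants and from 134 to 152 CPM in controls (log2 fold change -0.35, SE 0.06, edgeR adjusted p = 0.00140). It has a close copy, HIP-R, at 254 CPM in mutants and 260 CPM in controls (-0.03, adjusted p = 0.752), so how reads were split between the pair is uncertain. The sum of the pair, which does not depend on that split, was at 348, 394, 356 and 366 CPM in mutants and at 442, 391, 392 and 385 CPM in controls. On this sum the genotypes overlapped, with mutant 2 above 3 of the controls, and it was not tested. Tpr2, a J-domain co-chaperone gene, ranged from 149 to 159 CPM in mutants and from 169 to 178 CPM in controls (-0.17, SE 0.03, adjusted p = 0.00668). CG4456, which overlaps Hsp22 in the 3L cluster, was called higher at a very low level, 0.787 ± 0.254 CPM in mutants and 0.338 ± 0.085 CPM in controls (1.23, adjusted p = 0.0227). It lost its call without any 1 of mutant replicates 2 to 4 or control replicates 1 to 3 (0.0545 to 0.0722). CG4456 spans all of Hsp22 on the same strand, and its counts were partly not whole, such as 21.9 in mutant 2. How reads were split between CG4456 and Hsp22 is therefore uncertain, and its call depends on that split.

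Of 27 tested genes of ER folding and ER-associated degradation, 1 rose and 0 fell, and of 11 tested prefoldin and mitochondrial chaperone genes 0 were called by edgeR, beside the 14.8% called of all genes tested. The ER gene was Npl4, a cofactor of the segregase that pulls misfolded proteins from the ER membrane. It ranged from 145 to 158 CPM in mutants and from 114.7 to 122 CPM in controls, well apart (log2 fold change 0.35, SE 0.04, edgeR adjusted p = 8.32e-05). Npl4 lies on chromosome arm 3R, and Irbp18, described below, on 3L. For both, loss of wit and other differences between the chromosomes cannot be told apart. Of 20 tested genes of the integrated stress response and autophagy, 4 rose and 0 fell, beside 6.13% higher and 8.67% lower of all genes tested, and 3 of the 4 calls were lost when single libraries were left out. Gadd45, a stress-induced gene of the GADD45 family, ranged from 9.66 to 12.7 CPM in mutants and from 5.83 to 6.67 CPM in controls (0.79, SE 0.09, adjusted p = 0.000186). Irbp18, which encodes a bZIP partner of Xrp1, had 15.1 ± 0.923 CPM in mutants and 12.7 ± 0.973 CPM in controls (0.25, adjusted p = 0.0356). The autophagy genes Atg101 (0.16, adjusted p = 0.0305) and Atg9 (0.20, adjusted p = 0.0348) also rose, at 31.6 ± 1.57 CPM in mutants and 28.3 ± 0.275 CPM in controls for Atg101 and 36.6 ± 3.05 CPM in mutants and 31.9 ± 0.786 CPM in controls for Atg9. Irbp18 lost its call without mutant replicate 2 or 3 or control replicate 1, 2 or 3 (0.0522 to 0.101), Atg101 without these or control replicate 4 (0.0587 to 0.0829) or in the DESeq2 Wald test (0.0524), and Atg9 without any 1 library other than mutant replicate 1 (0.0591 to 0.101).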

How the data were processed

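RNA of ventral nerve cords was read as stranded mRNA libraries with 42 bp pairs, per the labels' protocols. The authors deposited 1 estimated count for each gene and library. The tools kallisto 0.43.0 and DESeq2 and the build BDGP6 come from the list per the submitters' processing notes, which gives no roles. Gene-level summing and any strand setting were not given in the sources used here. Among all values, 6.56% were not whole (tolerance 0.05), and all were rounded. Identifiers were named from a gene table (13948 of 14175 matched); positions and lengths came from Ensembl release 115 of the same assembly.

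The 6 Hsp70 rows were summed to 1. Genes were filtered with filterByExpr of edgeR 4.0.16 (minimum count 10), scaled by TMM and tested over the whole table with edgeR's quasi-likelihood test (robust, no covariate; R 4.3.3). Benjamini-Hochberg adjustment of the two-sided p-values ran over all genes, with calls under 0.05. SD is over 4 libraries, the standard error comes from the F statistic, and intervals (95%) use its degrees of freedom. Fold changes are mutant over control. Levels per length divide mean CPM by the longest annotated transcript. Figures were drawn with matplotlib 3.10.9. The procedure was tested on simulated data. Pairs of libraries of 1 genotype differed by more than sampling noise (chi-square per degree of freedom 3.77 to 36.2), so none was counted as a duplicate. The limit of 3 counts covers counting error only. The labels call each pool a biological replicate.

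Genes named were all listed members, wit, st, and up to 4 called genes with the smallest adjusted p of each wider list; the partners CG6000, CG14966 and HIP-R were named for their overlap or likeness, and 5 genes tied to crc were looked up after its values were seen. Of 93 wider genes, 86 were in the files. Marker lists are given as summed ranges. Members and lists were chosen with earlier results of these data known. Alternatives were DESeq2's size factors, the Wald test of DESeq2 1.42.0, 2 other count filters, a replicate block, Hsp70 copies as separate rows, and leaving out each library; sums of Hsp70 by locus were added after seeing the data.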

Additional observations from a re-analysis of the deposited data

Results flagged for a closer look

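Within the 4 libraries of a genotype, 1 library stood far from the others for 6 of the 82 groups examined (41 genes or sums in each genotype); chance flags about 1 in 20 groups. In mutants, Hsp23 was at 2604 CPM in replicate 2, against 2398 to 2422 CPM in the other 3. Hsf was at 79.9 CPM in mutant replicate 4, against 71.6 to 72.6 CPM in the other 3, and HIP at 124 CPM in mutant replicate 2, against 106 to 108 CPM. For ref(2)P, mutant replicate 1 was at 159 CPM, against 181 to 183 CPM in the other mutants, and control replicate 1 at 185 CPM, against 168 to 170 CPM in the other controls. Hsp26 was at 250.2 CPM in control replicate 1, against 178 to 186 CPM in the other controls.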

How the results depend on the processing

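The log2 fold change of the summed Hsp70 copies ran from 0.36 to 0.48 without single libraries and from 0.39 to 0.40 under the other settings, and passed in each. Crc, Hsp68 and Hsp70B passed in every alternative run for them. Each alternative for Hsp70B used the same deposited division of reads among the Hsp70 copies. Members called lower numbered 1 with the replicate block and 1 to 4 without single libraries (1 without any of mutant replicates 2 to 4 or control replicates 2 to 4), against 3; members called higher numbered 2 to 5 without single libraries, with 5 (and 4 lower) without mutant replicate 1. Of the wider lists, 3 were higher with the replicate block and 2 to 13 without single libraries, and 5 were lower with the DESeq2 Wald test and 2 to 5 without single libraries. Over all genes, 300 were higher (3.27%) and 553 lower (6.03%) with the replicate block, 578 higher (6.31%) and 904 lower (9.87%) with the DESeq2 Wald test, and 304 to 1059 were higher without single libraries and 524 to 1124 lower; the count higher was 1059 without mutant replicate 1, 361 and 352 without mutant replicates 2 and 3, and 304, 311 and 357 without control replicates 2, 3 and 4. The cause was not tested. The genes that changed sign passed in none of the alternatives. Without single libraries, the log2 fold change of Hsp27 ran from -0.0607 to 0.0828, Hsp23 from -0.0003 to 0.0754, CCT4 from -0.0174 to 0.0086, CCT5 from -0.0317 to 0.0000, CCT6 from -0.0214 to 0.0117, Ire1 from -0.0401 to 0.0120 and Hsp70Bbb from -0.474 to 0.530. With the replicate block, Hsp70Bbb had -0.0567. That setting also ended the calls of Hsp83, Hsc70-5, Irbp18, Atg101, Atg9 and st (edgeR adjusted p 0.0617 to 0.0905). The replicate numbers did not pair the samples: deviations of same-numbered libraries correlated at -0.26 to 0.06 over 9171 genes, so the block is only a setting. Depth limits Hsc70-1, st and CG4456, which had few counts.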

Other observations

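Of the 20 tested genes of the integrated stress response and autophagy list, 4 rose (Gadd45, Irbp18, Atg101 and Atg9) and 16 did not pass the test. Of these 16, 5 were looked up after crc was seen to rise, so they do not stand for the list. The translation inhibitor gene Thor was at 4.204 CPM in mutants and 2.86 CPM in controls (log2 fold change 0.55, edgeR adjusted p = 0.336). Xrp1 was at 246 CPM in mutants and 238 CPM in controls (0.05, adjusted p = 0.600). PPP1R15, which encodes the partner of the eIF2alpha phosphatase, was at 56.4 CPM in mutants and 55.5 CPM in controls (0.02, adjusted p = 0.731). The pseudokinase gene trbl was at 11.7 CPM in mutants and 12.1 CPM in controls (-0.05, adjusted p = 0.684), and Nmdmc, of mitochondrial folate metabolism, at 31.96 CPM in mutants and 32.4 CPM in controls (-0.02, adjusted p = 0.852).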
